A study of Mus musculus with 6 samples.

Results

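Lysosomal cathepsins other than cathepsin K were examined in RAW264.7 cells, a mouse macrophage line, with and without knockdown of Trem2, a lipid-sensing receptor of macrophages. The members were matched by gene symbol. They are Ctsa, Ctsb, Ctsc, Ctsd, Ctse, Ctsh, Ctsl, Ctso, Ctss and Ctsz, which makes 10 of the 56092 gene symbols in the count table. All 10 passed the filter on low counts, as did 13528 symbols in all.

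The series holds 6 RNA-seq libraries, with 3 from shNC cells and 3 from shTrem2 cells. The shNC cells carried the control vector and the shTrem2 cells a vector with an shRNA against Trem2. The study's methods describe stable lines made with a lentivirus that also carries GFP and selected with puromycin, so the controls share the vector and the selection. Every culture was given IL-4 (20 ng/mL, 24 hours) and then, for a further 24 hours, debris of freeze-thawed TCMK-1 cells, a mouse renal tubular epithelial line. The labels do not say which Trem2 shRNA was used, whether a line was a clone, or whether replicates came from separate cultures. The p-values therefore measure the spread between these libraries, and the knockdown cannot be told apart from other differences between the transduced lines. No library without IL-4 or without debris was analysed here.

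Cathepsins are the main proteases of the lysosome. They are made as inactive precursors, carried to endosomes and lysosomes largely by mannose 6-phosphate receptors, and activated at acid pH by removal of a propeptide. In macrophages they break down engulfed material, including dead cells and their debris, and some of them trim antigens and the invariant chain for MHC class II. They fall into families by the residue in the active site. Ctsb, Ctsc, Ctsh, Ctsl, Ctso, Ctss and Ctsz are cysteine proteases, Ctsd and Ctse are aspartic proteases and Ctsa is a serine carboxypeptidase. Ctse is found mostly in endosomes and the endoplasmic reticulum rather than in mature lysosomes.

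Promoter windows were read for the members because many lysosomal genes carry a palindrome bound by the MiT/TFE transcription factors. The windows come from RefSeq on GRCm38.p6 and run from 250 bases before to 50 bases after an annotated start. The submitters' processing notes name GRCm39, so no measured value was placed on these coordinates. Of the 10 members, 7 had an entry, with 8 windows in all because Ctsa had a pair. The strict palindrome TCACGTGA was present in 2 of the 8 windows, those of Ctsd and Ctsa, compared with 0.974% of 32851 windows of the same length. Its core CACGTG, which lies inside it, was present in 3 of 8 against 7.15% of all windows, the additional window being that of Ctsl, whose start lies 214 bases from the nearest GENCODE start. The motif TCATGTG was found in 2 of 8 windows (3.77% of all), GAGGAAG in 2 of 8 (13.6%) and TGACTCA in 0 of 8 (5.2%). Both strands were searched. A match is a run of letters and not a measured binding site.

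Ctsd and Ctsa are shown because they hold TCACGTGA, and Ctss because its window starts at an annotated coding transcript and holds other motifs of the search. Ctsd and Ctsa fell, as did Ctsz and Ctsl, whose windows lack TCACGTGA. The windows of Ctss and Ctso, which rose, and of Ctsc, which did not pass the test, lack it as well. Ctsb, Ctse and Ctsh had no window. Whether the palindrome relates to these changes was not tested. Capitals mark motif matches, and positions are counted from the start base as 0. In Ctsd (chr7:142387778-142388077, minus strand) TCACGTGA stands at -99 and a further CACGTG at -245, and the window's start lies 8 bases from the nearest GENCODE start, that of a transcript with a retained intron. The Ctsa window (chr2:164833523-164833822, plus strand) has TCACGTGA at -13 and 4, and TCATGTG at 21 on the other strand. This start lies 34 bases from the nearest GENCODE start, again of a retained-intron transcript, and the window at the start of a coding Ctsa transcript held none of the 5 motifs. In Ctss (chr3:95526536-95526835, plus strand) TCATGTG stands at 18, and GAGGAAG lies on the other strand at -1, where it reads as CTTCCTC.
Ctsd: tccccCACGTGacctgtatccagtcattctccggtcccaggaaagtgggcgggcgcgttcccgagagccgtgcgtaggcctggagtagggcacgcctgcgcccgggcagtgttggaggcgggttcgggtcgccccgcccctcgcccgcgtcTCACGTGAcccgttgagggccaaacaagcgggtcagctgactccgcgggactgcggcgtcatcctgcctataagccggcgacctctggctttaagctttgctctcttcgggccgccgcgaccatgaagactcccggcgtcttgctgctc
Ctsa: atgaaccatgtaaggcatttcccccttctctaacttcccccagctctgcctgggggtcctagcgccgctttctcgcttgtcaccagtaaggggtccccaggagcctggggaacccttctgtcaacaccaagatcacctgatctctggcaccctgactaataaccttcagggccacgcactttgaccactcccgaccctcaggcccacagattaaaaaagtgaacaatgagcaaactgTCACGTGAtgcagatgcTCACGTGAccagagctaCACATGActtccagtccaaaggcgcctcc
Ctss: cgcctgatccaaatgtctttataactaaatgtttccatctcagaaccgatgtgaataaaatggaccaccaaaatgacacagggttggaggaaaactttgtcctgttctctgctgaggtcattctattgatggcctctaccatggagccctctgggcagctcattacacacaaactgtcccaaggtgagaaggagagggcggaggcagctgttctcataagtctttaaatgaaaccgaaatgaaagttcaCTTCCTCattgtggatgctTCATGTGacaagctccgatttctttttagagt

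Each shNC library held 15876059 to 18088371 counts with a gene symbol and each shTrem2 library 19358111 to 19655157. Members held between 92880 and 111206 of them, so counting error was small for all but the lowest genes. The targeted gene was checked first. Trem2 was at 116, 124 and 145 CPM (counts per 1000000 named counts) in shNC and at 63.8, 62.5 and 79.2 CPM in shTrem2, with no overlap, a log2 difference of -0.87 (SE 0.094, edgeR, adjusted p = 3.39e-06). Per transcript length its mean level fell from 178 to 41.7 FPKM, a deeper fall than the 1.83-fold of the counts. Counts and FPKM thus differ on the depth of the knockdown. The Trem2 symbol sums 4 transcript rows, and the cause of the gap was not tested. The macrophage identity of the cells was checked with 8 markers, all of which were measured. Their summed level was between 5196 and 6085 CPM in shNC and between 10058 and 11186 CPM in shTrem2, a gap carried mostly by Lyz2, the lysozyme of macrophages (log2 difference 1.39, SE 0.08, edgeR, adjusted p = 9.67e-09). Of these markers 6 rose and 2 fell at an adjusted p under 0.05, compared with 28.8% and 28.6% of all genes tested. Fcgr1, an Fc receptor, rose by 0.85 (log2, SE 0.066, edgeR, adjusted p = 1.52e-07). Csf1r, a colony-stimulating factor receptor, rose by 0.76 (log2, SE 0.052, edgeR, adjusted p = 5.15e-08). Itgam, an integrin chain, fell by 0.78 (log2, edgeR, adjusted p = 8.43e-09). Of 14 markers of tubular epithelium, 13 had at most 8 counts in any library, and the summed counts of the 14 were 17 to 24 in shNC and 45 to 57 in shTrem2. The tested one, the water channel Aqp1, had 12, 6 and 5 counts in shNC and 38, 50 and 39 in shTrem2 (log2 difference 2.3, SE 0.38, edgeR, adjusted p = 1.61e-04). The part of these marker shifts in the cathepsin results was not tested.

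The cathepsins covered a wide range of levels. In shNC the order by mean FPKM, which corrects for transcript length, was Ctsb, Ctsa, Ctsz, Ctsd, Ctss, Ctsl, Ctsh, Ctsc, Ctse and Ctso, from 849 FPKM for Ctsb to 7.56 FPKM for Ctso. Among neighbors in this order, only Ctsc and Ctse overlapped between libraries. The 6 most abundant members held between 97% and 97.7% of the summed FPKM of the family in every library. The remaining 4 were at or below 45.01 FPKM in shNC. In shTrem2, Ctss stood above Ctsz and Ctsd, and Ctse came last. There the values of Ctsa and Ctss, of Ctss and Ctsz, and of Ctso and Ctse overlapped, so these neighbors did not differ beyond their spread.

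**Figure D1:**
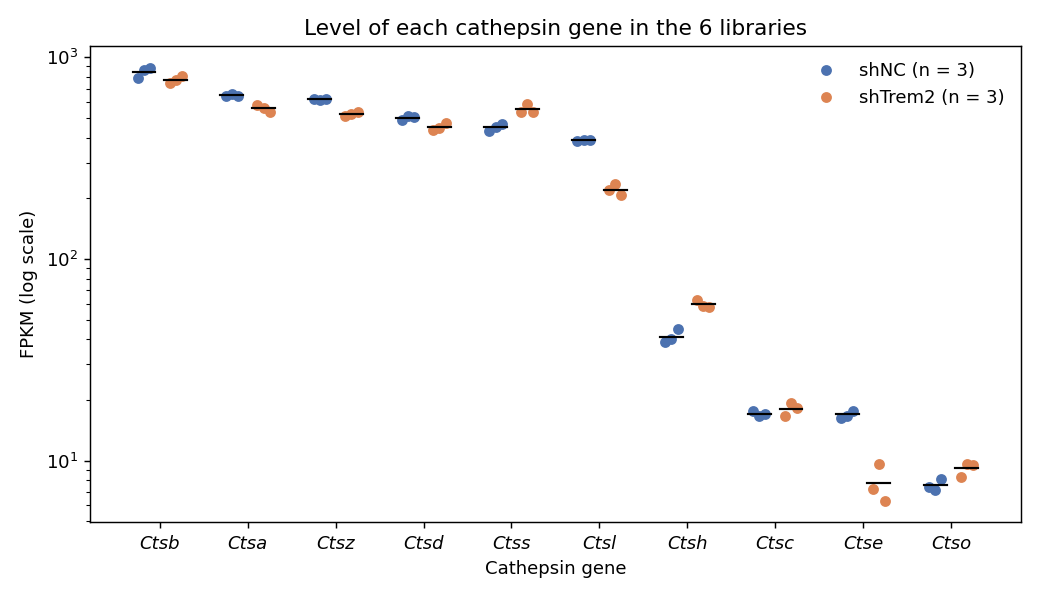
Level of each of the 10 cathepsin genes in each of the 6 libraries, in FPKM on a log axis, with shNC in blue and shTrem2 in orange and a line at the mean of each group (n = 3). Ctsl and Ctse sit lower and Ctsh and Ctss higher in shTrem2, and the groups of Ctsb and of Ctsc overlap.

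The question of the comparison was how knockdown of Trem2 alters macrophages that have met tubular debris. The cathepsins did not move together: Ctsh, Ctss and Ctso rose, Ctse, Ctsl, Ctsz, Ctsb, Ctsa and Ctsd fell, and Ctsc did not pass the test. In counts, 9 of the 10 passed an adjusted p of 0.05 in edgeR, compared with 57.4% of all genes tested. The split was 3 higher (28.8% of all genes) and 6 lower (28.6% of all genes). With a change over 1.5-fold asked as well, 1 member was called higher (9.46% of all genes) and 2 were called lower (12.4% of all genes). The groups did not overlap in CPM for 9 members, as for 63.5% of all genes. The median log2 difference of the members was -0.13, with 0 for all genes. The median size of a change over all genes was 0.31, which only Ctse, Ctsh, Ctsl, Ctso and Ctss exceeded. In bulk RNA, fewer cells of a kind and less RNA per cell cannot be told apart. Log2 differences below come from edgeR with TMM factors, so they differ slightly from the ratio of the mean CPM.

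**Figure D2:**
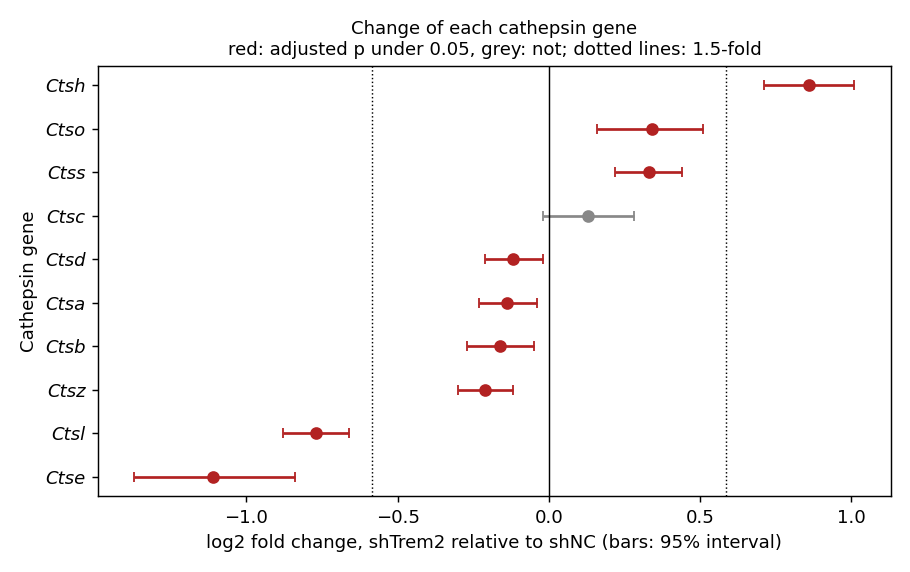
Log2 fold change of each cathepsin gene in shTrem2 relative to shNC from edgeR, with bars for the 95% interval, red where the adjusted p was under 0.05 and grey where not, and dotted lines at 1.5-fold. Ctse and Ctsl lie beyond the lower line and Ctsh beyond the upper line, while the intervals of Ctsa, Ctsb, Ctsd and Ctsz lie between the lower dotted line and 0.

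Ctsl, a cysteine endopeptidase that degrades much of the protein delivered to lysosomes, had the largest fall in FPKM, while Ctsb fell more in CPM. Ctsl was at 608, 609.8 and 623 CPM in shNC and at 351, 376 and 328 CPM in shTrem2. All shTrem2 libraries were far below all shNC libraries. The mean level was 387 ± 2.13 FPKM (SD, n = 3) in shNC and 221 ± 14.5 FPKM in shTrem2. Relative to shNC, Ctsl changed by -0.77 on the log2 scale (SE 0.052, 95% interval -0.88 to -0.66, edgeR, adjusted p = 3.92e-08), a 1.7-fold lower level. It ranged from -0.82 to -0.73 over the 18 alternatives tried and passed the test in each.

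Ctss, a cysteine endopeptidase of antigen-presenting cells that cuts the invariant chain and stays active at neutral pH, moved the other way. Its level was 446, 470.3 and 485 CPM in shNC and 561, 609 and 550.4 CPM in shTrem2, with no overlap. The mean rose from 449 ± 18.2 to 551 ± 28.6 FPKM (SD, n = 3). This was a log2 difference of 0.33 (SE 0.052, 95% interval 0.22 to 0.44, edgeR, adjusted p = 9.84e-05), which is 1.26-fold and so short of 1.5-fold. In shNC the Ctss to Ctsl ratio of FPKM was 1.12, 1.16 and 1.2, and in shTrem2 it was 2.45, 2.48 and 2.57. The log2 difference of this ratio was 1.11, with an exact two-sided permutation p of 0.1, the smallest that 3 against 3 libraries allow. The ratio was formed after the values of both genes had been seen.

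Ctsb, an endopeptidase that also trims dipeptides from the end of proteins, was the most abundant member in both groups. It was at 2299, 2413 and 2499.9 CPM in shNC and at 2001, 2120.3 and 2185 CPM in shTrem2. In CPM the lowest shNC library was above the highest shTrem2 library by a small margin. In FPKM the groups overlapped, with shNC replicate 1 at 788.37 and shTrem2 replicate 3 at 804.94. Relative to shNC, Ctsb changed by -0.16 on the log2 scale (SE 0.051, 95% interval -0.27 to -0.05, edgeR, adjusted p = 0.0152). It did not pass without shNC replicate 3 (adjusted p = 0.0597) or shTrem2 replicate 1 (adjusted p = 0.0996), nor per length, with an adjusted p of 0.0969 in limma on log2(FPKM + 1) and 0.141 in edgeR with an offset for effective length.

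The exopeptidases among the cysteine cathepsins remove residues from the ends of proteins. Ctsh, an aminopeptidase, was at 40.3, 42.2 and 43.7 CPM in shNC and at 79.6, 77 and 67.5 CPM in shTrem2. Every shTrem2 library was well above every shNC library. The log2 difference was 0.86 (SE 0.07, 95% interval 0.71 to 1.01, edgeR, adjusted p = 2.27e-07), or 1.82-fold. Per length the rise was smaller. The FPKM values were 38.56, 40.1 and 45.01 in shNC and 62.43, 58.7 and 57.58 in shTrem2. On log2(FPKM + 1) the difference was 0.52 (limma, adjusted p = 8.88e-04), and with an offset for effective length it was 0.56 (edgeR, adjusted p = 3.7e-04), both under 1.5-fold. The Ctsh symbol sums 11 transcript rows. The most abundant row went from 33.8 to 70.1 CPM on average and from 80.3% to 93.6% of the symbol's counts, while the other rows together went from 8.29 to 4.55 CPM.

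Ctsz, a carboxypeptidase also known as cathepsin X, varied least between replicates. It was at 699.7, 689 and 699 CPM in shNC and at 578, 591 and 597 CPM in shTrem2. The groups were clearly apart, with a coefficient of variation of 0.831% in shNC and 1.72% in shTrem2. Ctsz therefore had a log2 difference of -0.21 (SE 0.041, 95% interval -0.3 to -0.12, edgeR, adjusted p = 7.1e-04). This symbol has 1 transcript row, so no choice of isoform enters its value.

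Ctsc, the dipeptidyl peptidase that activates serine proteases of granules, was the member that did not pass the test. It was at 38.7, 35.3 and 39 CPM in shNC and at 37.7, 43 and 40.2 CPM in shTrem2, and the groups overlapped. The log2 difference was 0.13 with a 95% interval of -0.02 to 0.28 (edgeR, adjusted p = 0.122). Of 4 granule proteases known as its substrates (Elane, Prtn3, Gzma and Gzmb), none was tested, since none exceeded 7 counts in any library.

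Ctso, a broadly expressed cysteine cathepsin of low abundance, was at 19.8, 21.7 and 22 CPM in shNC and at 24.1, 27.8 and 26.6 CPM in shTrem2. All shTrem2 libraries were above the shNC libraries. For Ctso the log2 difference was 0.34 (SE 0.082, 95% interval 0.16 to 0.51, edgeR, adjusted p = 0.00299). On log2(FPKM + 1) the adjusted p was 0.0652 in limma, so that it did not pass there.

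**Figure D3:**
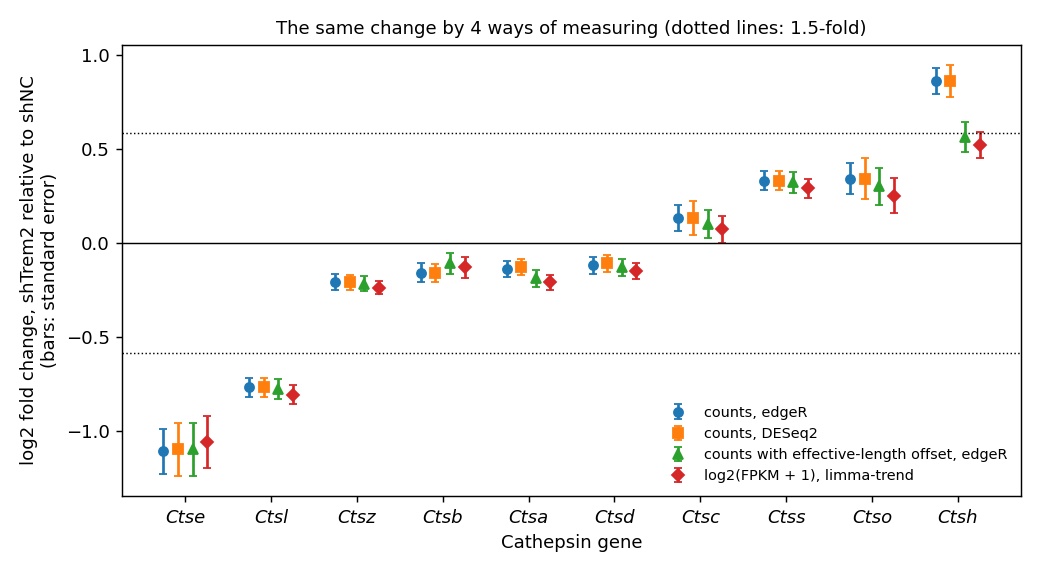
Log2 fold change of each cathepsin gene, shTrem2 relative to shNC, by 4 ways of measuring, with bars for the standard error and dotted lines at 1.5-fold. The 4 values lie close together for all members but Ctsh, which was 0.86 on counts in edgeR and 0.52 on log2(FPKM + 1).

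The aspartic cathepsins differed in level and in the size of their fall. Ctse, an endosomal aspartic protease, had the largest relative change of the family. It was at 29.7, 30.5 and 32.1 CPM in shNC and at 13.1, 17.5 and 11.3 CPM in shTrem2. The groups did not overlap, and the shTrem2 libraries were more spread, with a coefficient of variation of 22.6% compared with 3.88% in shNC. Its log2 difference was -1.11 (SE 0.12, 95% interval -1.37 to -0.84, edgeR, adjusted p = 4.19e-06), or 2.15-fold lower. Leaving out each library in turn gave values between -1.3 and -0.99.

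Ctsd, the main aspartic protease of lysosomes, was at 886, 926 and 915 CPM in shNC and at 790.5, 813 and 852 CPM in shTrem2. The groups stood apart by little. The log2 difference was -0.12 (SE 0.045, 95% interval -0.21 to -0.02, edgeR, adjusted p = 0.0399), with the largest adjusted p among the members that passed. It did not pass without shNC replicate 2 (adjusted p = 0.116), shNC replicate 3 (0.0843), shTrem2 replicate 1 (0.186) or shTrem2 replicate 2 (0.0816).

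Ctsa, the serine carboxypeptidase also called protective protein, was at 783, 802 and 789 CPM in shNC and at 727, 708 and 677 CPM in shTrem2. The groups did not overlap. The log2 difference was -0.14 (SE 0.044, 95% interval -0.23 to -0.04, edgeR, adjusted p = 0.0179). Without shNC replicate 2 the adjusted p was 0.0559. Besides its own activity, this protein holds the sialidase Neu1 and the beta-galactosidase Glb1 in a complex that protects them. Both partners fell by more than Ctsa. Neu1 was at 145, 143 and 132 CPM in shNC and at 91.4, 89.8 and 95.1 CPM in shTrem2 (log2 difference -0.57, SE 0.052, edgeR, adjusted p = 6.6e-07). Glb1 was at 98.4, 99.3 and 103 CPM in shNC and at 62.8, 66.8 and 54 CPM in shTrem2 (log2 difference -0.68, SE 0.07, edgeR, adjusted p = 2.25e-06). The difference between the falls of the partners and that of Ctsa was not tested, although the 95% intervals of Neu1 (-0.68 to -0.46) and Glb1 (-0.83 to -0.53) do not reach that of Ctsa.

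Summed over the 10 members, FPKM was 3434, 3572 and 3599 in shNC and 3119.7, 3219.6 and 3181 in shTrem2. The mean was 3535 ± 88.2 and 3174 ± 50.4 (SD, n = 3), and all shTrem2 libraries were below all shNC libraries. This change of -10.2% was the balance of opposite shifts. Ctsl gave -166 FPKM, Ctsz -95.4, Ctsa -89.4, Ctsb -74 and Ctsd -50, against 102 for Ctss and 18.3 for Ctsh. Ctse, with the largest relative fall, gave -9.21 FPKM. By family, the aspartic members went from 519 ± 12.3 to 459 ± 19 FPKM, the cysteine members from 2369 ± 73 to 2156 ± 52.4 FPKM, and the serine member Ctsa from 647 ± 9.19 to 558 ± 20.6 FPKM. Of the 7 cysteine members 3 rose (28.8% of all genes), 3 fell (28.6% of all genes) and 1 did not pass.

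In the make-up of the pool, the largest shifts in share were those of Ctss and Ctsl. Ctss held 12.7% ± 0.22 of the summed FPKM in shNC and 17.4% ± 0.708 in shTrem2, while Ctsl went from 11% ± 0.225 to 6.96% ± 0.413. Ctsb, at 24% and 24.4%, and Ctsd, at 14.2% in both groups, had shares that overlapped between groups, as did Ctsa. The shares of the remaining members did not overlap: Ctsz went from 17.5% to 16.5%, Ctsh from 1.17% to 1.88%, Ctse from 0.479% to 0.243%, Ctsc from 0.484% to 0.568% and Ctso from 0.214% to 0.288%. Shares add up to a fixed total, so a rise of any share lowers the sum of the others.

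**Figure D4:**
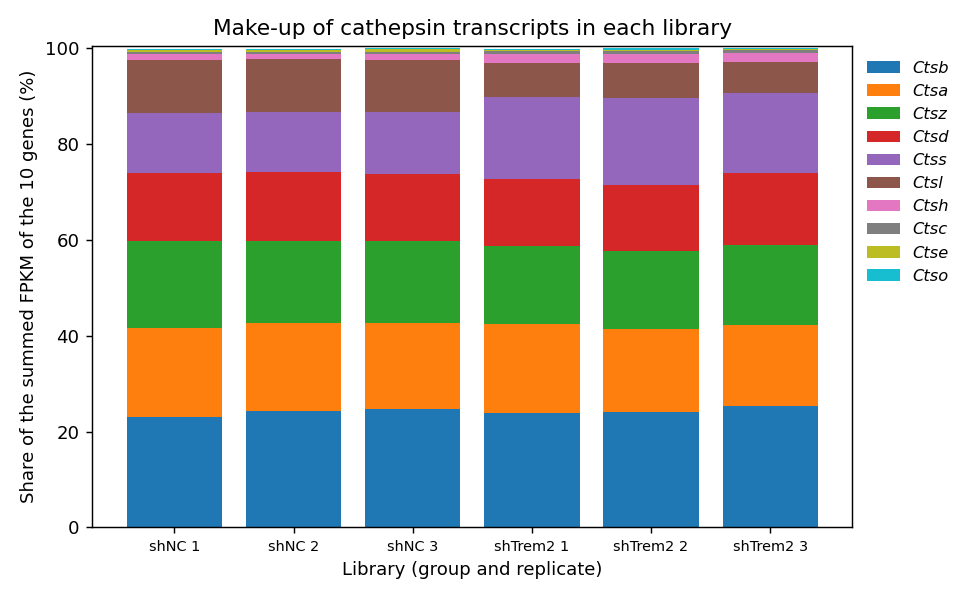
Share of each cathepsin gene in the summed FPKM of the 10 genes (percent), with a stacked bar for each of the 6 libraries. The band of Ctss is wider and that of Ctsl narrower in the 3 shTrem2 libraries, while Ctsb and Ctsd take about the same share throughout.

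Among the other cathepsin genes, 11 of 13 were untested, with at most 1 count in any library. Ctsk, the collagenase of osteoclasts, had 9, 9 and 6 counts in shNC and 635, 713 and 457 counts in shTrem2 (log2 difference 6.07, SE 0.25, edgeR, adjusted p = 5.13e-10), and at 25.8 FPKM it was still below Ctsh in shTrem2. Ctsf, the other tested gene, passed at -0.27 (SE 0.063, edgeR, adjusted p = 0.00241).

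Of 14 inhibitors of cysteine cathepsins, 4 were tested, with 1 higher (28.8% of all genes), 1 lower (28.6% of all genes) and 2 that did not pass. None both passed and exceeded 1.5-fold. The untested ones had at most 10 counts. Cst3, or cystatin C, a secreted inhibitor, was at 1005, 1030.3 and 1097 CPM in shNC and at 1438, 1388 and 1463 CPM in shTrem2, with no overlap (log2 difference 0.49, SE 0.049, edgeR, adjusted p = 1.6e-06). Cstb, or stefin B, the inhibitor of the cytosol, was at 129.9, 138 and 135 CPM in shNC and at 109, 117 and 118 CPM in shTrem2 (log2 difference -0.2, SE 0.049, edgeR, adjusted p = 0.00375). The FPKM sum of the cysteine members was 1.22, 1.25 and 1.2 times that of Cst3 in shNC and 0.795, 0.86 and 0.786 times in shTrem2. The groups did not overlap, and the exact two-sided permutation p was 0.1, the smallest possible here. This is a ratio of transcripts and not of active enzyme. It was formed for Cst3 only, the inhibitor that rose, while Cstb fell from a mean of 481 to 409 FPKM.

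Of 7 other lysosomal proteases, 2 rose (Cpq and Prcp), 2 fell (Tpp1 and Napsa) and 3 did not pass, with a median log2 difference of 0.03. Of all genes tested, 28.8% rose and 28.6% fell at an adjusted p under 0.05. Lgmn, the asparaginyl endopeptidase that processes several cathepsin precursors, was at 571, 602 and 656 CPM in shNC and at 635, 665 and 598 CPM in shTrem2. The groups overlapped, and the log2 difference was 0.09 with a 95% interval of -0.04 to 0.21 (edgeR, adjusted p = 0.216). Without shNC replicate 3 it passed at 0.15 (adjusted p = 0.0369). Cpq, a carboxypeptidase of low level, rose from 3.85 ± 0.446 to 6.42 ± 0.688 CPM (log2 difference 0.77, SE 0.17, edgeR, adjusted p = 0.0014). Of 6 genes that sort enzymes to lysosomes, Nagpa and Sort1 rose, M6pr fell and 3 did not pass, with a median of -0.06 and none past 1.5-fold.

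The MiT/TFE factors drive lysosomal genes and bind the palindrome shown above for Ctsd and Ctsa. Tfeb had a mean of 13.7 ± 1.82 CPM (SD, n = 3) in shNC cells and of 13.8 ± 1.24 CPM in shTrem2 cells, with a 95% interval of -0.21 to 0.29 for the log2 difference (edgeR, adjusted p = 0.791). Tfe3 was at 102 ± 6.34 and 98.6 ± 6.13 CPM, with an interval of -0.14 to 0.11 (edgeR, adjusted p = 0.856). Mitf was at 85.6 ± 2.74 and 78 ± 1.47 CPM, with no overlap and an interval of -0.21 to 0.01 (edgeR, adjusted p = 0.111). Mitf passed as lower with scaling by library size only (log2 difference -0.13, edgeR, adjusted p = 0.036) and on log2(FPKM + 1) (-0.17, limma, adjusted p = 0.0424). Tfec passed, but from 2, 6 and 3 counts in shNC to 27, 29 and 12 counts in shTrem2 (log2 difference 2.45, SE 0.52, edgeR, adjusted p = 0.00113). These are transcript levels, and these factors are also set by their place in the cell, which was not measured.

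Of 8 genes listed for the MHC class II route, in which Ctss cuts the invariant chain, 6 were tested. Of the 6, 4 were called lower, compared with 12.4% of all genes, and the median log2 difference was -1.27. A further 1 was higher without reaching 1.5-fold (H2-DMa) and 1 did not pass (Ifi30). The number called lower was 1 with at least 10 counts asked in every library, which leaves out the class II chains with few counts, and the number called higher was 1 with no filter beyond 1 count. The untested genes were H2-DMb1, with 4, 0 and 1 counts in shNC and 7, 12 and 10 in shTrem2, and Ciita, with at most 5 counts. Cd74, the invariant chain itself, was at 1354, 1393 and 1305 CPM in shNC and at 614, 592 and 502 CPM in shTrem2. The groups were far apart, with a log2 difference of -1.21 (SE 0.065, edgeR, adjusted p = 5.47e-09). H2-Eb1, a class II beta chain, had 108, 132 and 136 counts in shNC and 5, 5 and 6 in shTrem2 (log2 difference -4.66, SE 0.25, edgeR, adjusted p = 5.67e-09). H2-Ab1 and H2-Aa, chains of the class II molecule I-A, had few counts. H2-Ab1 had 20, 25 and 20 counts in shNC and 11, 7 and 5 in shTrem2 (log2 difference -1.62, SE 0.39, edgeR, adjusted p = 0.00276). H2-Aa had 11, 23 and 12 counts in shNC and 3, 9 and 8 in shTrem2 (log2 difference -1.32, SE 0.48, edgeR, adjusted p = 0.0298), a call lost in DESeq2 (adjusted p = 0.102), with the effective-length offset (0.054), without shNC replicate 2 (0.18), without shTrem2 replicate 1 (0.127) and at an adjusted p of 0.01.

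**Figure D5:**
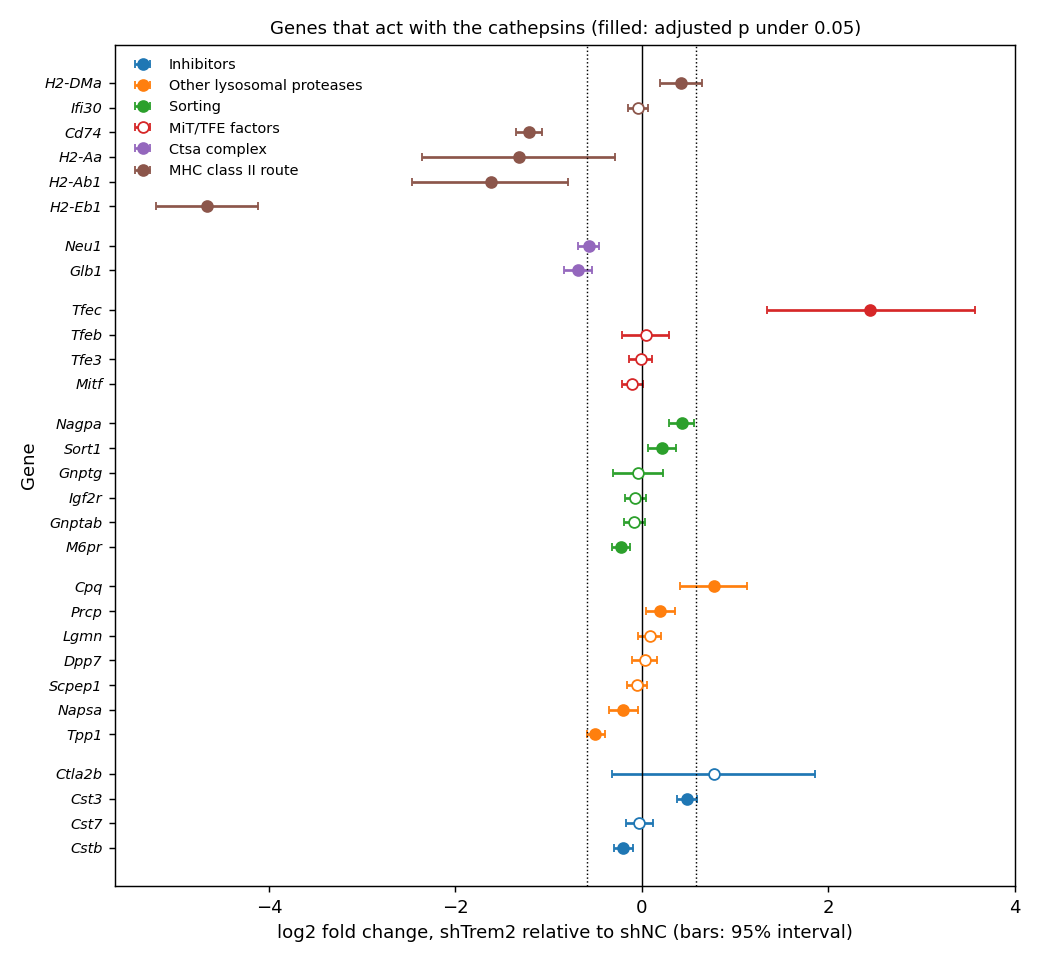
Log2 fold change, shTrem2 relative to shNC, of tested genes that act with the cathepsins, grouped by role, with bars for the 95% interval from edgeR, filled points where the adjusted p was under 0.05 and dotted lines at 1.5-fold. H2-Eb1 lies lowest at -4.66 and Tfec highest at 2.45, while Tfeb, Tfe3 and Mitf have open points near 0.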

How the data were processed

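RNA of 6 RAW264.7 libraries was measured by stranded paired-end poly(A) RNA-seq. The submitters' processing notes name fastp, HISAT2, StringTie and GRCm39. The counting tool and annotation release are not given in the sources used here. The authors deposited estimated counts per transcript, not scaled for depth, of which 79.3% of nonzero values were not whole (tolerance 0.001), and FPKM per gene. Here estimated counts were summed per symbol and rounded. Rows without a symbol held 0.908% to 1.12% of a library and were left out. The limit that a count of 0 allows was taken as 3 counts (0.153 to 0.189 CPM), which covers counting error only. CPM were per 1000000 named counts.

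Samples were grouped by the shRNA in their labels. The test was edgeR 4.0.16 in R 4.3.3 (TMM, filterByExpr, quasi-likelihood, no covariate) over 13528 genes with Benjamini-Hochberg adjustment. It was also run on simulated data in which 200 genes were changed. Far more genes passed in these libraries, so that run does not show how the test behaves with so many changes. Calls had an adjusted p under 0.05 and a change over 1.5-fold, the study's criteria. Alternatives were DESeq2 1.42.0, limma 3.58.1, other normalizations and filters, an offset for effective length (count divided by FPKM), a replicate block and leaving out each library. The reported fit with an adjusted p of 0.01 asked was counted among them. The members and the lists were chosen with earlier results of these data known. Named were the members, Ctsk, Trem2, Cst3, Cstb, Lgmn, the MiT/TFE factors, up to 4 of the largest calls in each list and every tested gene of lists of 4 or fewer. Genes outside this rule, named to account for a small count, were chosen after their values were seen. Promoter windows and motif shares came from RefSeq (GRCm38.p6). Protein sequences were not used here.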

Additional observations from a re-analysis of the deposited data

How the results depend on the processing

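Over the 10 cathepsins, 18 alternatives each gave 180 values. The alternatives include the reported fit with an adjusted p of 0.01 asked. It repeats the reported log2 differences, and Ctsa, Ctsb and Ctsd did not pass there. Of the 180 values, 165 kept their direction and their side of the adjusted p threshold, 15 kept only the direction and 0 reversed. The 15 belonged to Ctsa, Ctsb, Ctsd and Ctso. This tally leaves out the 1.5-fold threshold, which Ctsh missed on log2(FPKM + 1), on log2(FPKM + 0.1) and with the effective-length offset. The number passing an adjusted p of 0.05 was between 7 and 9 when each library was left out in turn, and 6 at an adjusted p of 0.01. The number called higher was 0 in limma on log2(FPKM + 1), on log2(FPKM + 0.1), with the effective-length offset and with a change over 2-fold, and 3 with no fold threshold. The number called lower was 1 with a change over 2-fold and 6 with no fold threshold. The log2 ratio of the summed level was -0.16 in FPKM, -0.18 in CPM, -0.19 with the largest transcript row only, and between -0.18 and -0.14 without each library. Tfeb turned from 0.04 to -0.03 and -0.04 on log2(FPKM + 1) and log2(FPKM + 0.1) and to -0.01 with the offset, and lay between -0.06 and 0.11 without each library. Tfe3 (-0.01) lay between -0.07 and 0.03 without each library. The cause of these shifts was not tested. Over all tested genes, same-numbered libraries did not deviate together (r of 0.006, -0.004 and 0.007). This does not show whether they were handled together, which the labels do not say. With the replicate block, 9 members passed, 1 was called higher and 2 lower, as without it, and Ctsd had a log2 difference of -0.12 (edgeR, adjusted p = 0.0387). With 3 libraries a group, whether Ctsa, Ctsb and Ctsd passed depended on single libraries, although leaving out each library kept them between -0.16 and -0.12, -0.2 and -0.12, and -0.15 and -0.09, and Tfec, H2-Aa and H2-Ab1 rest on few counts.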
